A study of Oryza sativa with 36 samples.

Results

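Roots and shoots of mock-treated rice were compared with each other, library by library, in the RNA sequencing (RNA-Seq) data of a study of zaxinone, an apocarotenoid that regulates growth. The members were the 9 root libraries and the 9 shoot libraries of mock plants, 18 of the 36 libraries of the series. The other 18 libraries came from the same organs of plants given 5 µM zaxinone. All plants were wild-type seedlings in the Nipponbare background, 3 weeks old, grown hydroponically in modified Hoagland solution under a 12 h photoperiod. Mock plants received 0.1% acetone, and organs were collected at 2, 6 and 24 h, with 3 libraries for each organ and time. Every title carries the mark +P, which the labels do not explain. The study speaks of biological replicates, but the labels do not say whether the 3 libraries of a group came from separate plants, so the p-values below measure the spread between libraries, which may be partly technical. Each library is a whole organ, so fewer cells of a type and less RNA per cell cannot be told apart.

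Roots take up water and nutrient ions, anchor the plant and depend on sugars that arrive from the leaves through the phloem. Shoots carry out photosynthesis, build those sugars and export them. Glycolysis splits hexoses to pyruvate in both organs, and the tricarboxylic acid (TCA) cycle oxidizes the carbon further in mitochondria. Cytokinins are hormones made in both organs that promote cell division in the shoot and restrain the growth of the root, and the attachment of glucose to them turns them into inactive or storage forms.

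The libraries held between 20694839 and 30830010 counted reads in root (median 24652441) and between 20501465 and 26904536 in shoot (median 24730026). Expression levels are in CPM, counts per library size after TMM scaling, which are not corrected for transcript length. Where transcripts are ranked by level below, the ranking may partly reflect length. No table at hand pairs these transcript identifiers with products, so the organ labels were checked by likeness only. Across the 25450 transcripts tested, each root library correlated with the other root libraries at r = 0.95 to 0.992 and each shoot library with the other shoot libraries at 0.957 to 0.991, whereas pairs of a root and a shoot library gave 0.605 to 0.68. The first principal component held 86.6% of the variance and put all 9 root libraries on one side and all 9 shoot libraries on the other, and the second (3.97%) ordered the libraries of both organs by time, with 6 h at one end and 24 h at the other. No library stood on the wrong side of its label.

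The organ was the main divide in these transcriptomes. With time as a block, 10218 transcripts were higher and 9560 lower in root than in shoot at a Benjamini-Hochberg adjusted p under 0.05 in the quasi-likelihood test of edgeR, 77.7% of those tested. With a log2 difference of at least 1 added, 5334 were higher (21.0%) and 5969 lower (23.5%). With at least 3, which is an 8-fold difference, 2196 were higher (8.63%) and 2474 lower (9.72%). For 44.8% of the transcripts tested, no root library overlapped any shoot library. The median difference of all transcripts was 0.03 on the log2 scale, and the central 50% of the transcripts tested lay between -0.89 and 0.75. Scaling by library totals alone moved this median up by 0.33 and changed the share of calls that were higher in root to 65.3%, against 51.7% with TMM. Differences are therefore given relative to the TMM centre.

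**Figure D1:**
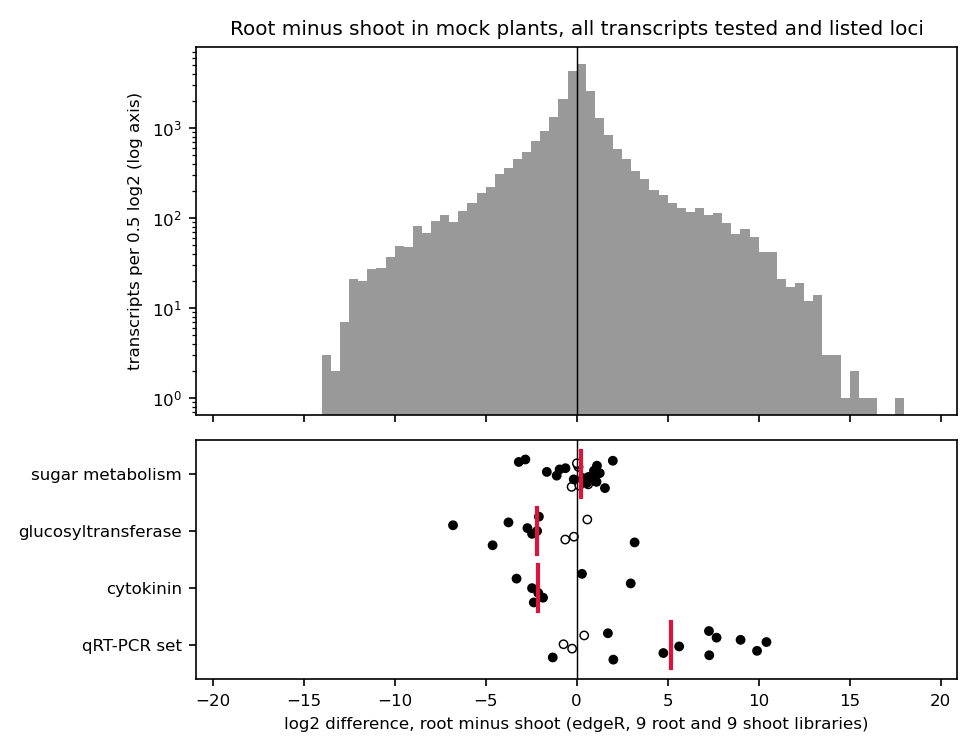
The upper panel counts transcripts by their log2 difference, root minus shoot, in bins of 0.5 on a log axis. The lower panel shows each locus of 4 lists as a point, filled where the adjusted p was under 0.05 and open where it was not, with the list's median as a red line at 0.25 for sugar metabolism, -2.17 for glucosyltransferases, -2.11 for cytokinin loci and 5.20 for the qRT-PCR set.

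Many transcripts were abundant in one organ and scarce in the other. Of the 12608 transcripts with a mean of at least 10 CPM in root, 2032 were below that level in shoot, and of the 12991 at that level in shoot, 2415 were below it in root. Transcripts at 10 CPM or more with no read listed in the 9 libraries of the other organ numbered 56 in root and 25 in shoot. At a mean of at least 100 CPM the numbers were 6 in root and 0 in shoot. A row not listed because it held fewer than 2 counts was taken as 0, here and below. The clearest case in root was Os06g07250 on chromosome 6, for which no product was at hand. It had 800 CPM in the lowest, 1092 in the median and 1302 in the highest root library, 271235 reads in all, and 0 reads in the 9 shoot libraries. The lower bound of its difference was about 16.1 on the log2 scale, counted from a floor of 3 reads over the shoot libraries. In shoot, Os02g21340 on chromosome 2, also without a product at hand, had 0 reads in all root libraries. Its lowest, median and highest shoot values were 51.5, 67.7 and 98.4 CPM, with a lower bound of about 12.7 for the difference the other way.

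The shoot libraries were also less even than the root libraries. The 10 most abundant transcripts took 3.61% ± 0.481 of the reads in root and 8.47% ± 0.983 in shoot (SD, n = 9 each), an exact two-sided permutation p of 4.11e-05, the smallest that 48620 splits allow, and 5.48e-05 after adjustment over 4 summaries. The 100 most abundant took 13.7% ± 0.82 in root and 24.0% ± 1.58 in shoot, with the same p. A total of 1620 ± 36.8 transcripts made up 50% of the reads in root, against 1022 ± 100 in shoot. None of these summaries overlapped between organs, at any of the 3 times. The number of transcripts at 1 CPM or more was not shown to differ, with 20971 ± 326 in root and 21005 ± 172 in shoot (exact permutation p = 0.784). The transcript with the highest mean in shoot was Os11g47970, for which no product was at hand. It had 22.7 CPM in the lowest, 220 in the median and 1026 in the highest root library, and 5595, 21350 and 31310 CPM in shoot. The locus with the highest mean in root, Os12g38300, had 4048, 5872 and 8268 CPM there, against 1.11, 2.16 and 4.32 CPM in shoot.

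The annotated loci fell into 4 groups: 24 loci of sugar metabolism, 13 of glucosyltransferases, 7 of cytokinin biosynthesis and response, and 14 loci without a given function, for which primers for quantitative RT-PCR (qRT-PCR) were listed. The sugar, glucosyltransferase and qRT-PCR loci were chosen by the study for their response to zaxinone in root libraries of this series, so all of them had to be detected in some root libraries. Counts over these lists describe them and are set beside the shares of all transcripts, 40.1% higher and 37.6% lower in root.

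Of the 24 sugar metabolism loci, 11 were higher in root, 7 were lower and 6 did not pass the test, with a median difference of 0.25. These shares lie near those of all transcripts, and 12 of the 24 did not overlap between organs, beside 44.8% of all transcripts tested. With library totals in place of TMM, 16 were higher and 6 lower. The ATP-dependent phosphofructokinase locus Os10g26570, which catalyses the committed step of glycolysis, had 30.5 CPM in the lowest, 55.7 in the median and 79.3 in the highest root library, against 14.04, 15.35 and 25.47 CPM in shoot. No root library overlapped a shoot library (log2 difference 1.56, SE 0.19, edgeR adjusted p = 3.46e-07). The phosphofructokinase loci annotated to the reaction with diphosphate were not called, Os09g12650 at -0.28 (adjusted p = 0.427) and Os02g48360 at 0.15 (adjusted p = 0.156). The aldolase locus Os01g02880 had 101, 135 and 150 CPM in root and 57.3, 60.1 and 62.8 CPM in shoot (log2 difference 1.09, adjusted p = 1.02e-10). A second aldolase locus, Os05g33380, differed by 0.56 with overlap between the organs, and the third, Os08g02700, did not pass the test with time as a block (0.64, adjusted p = 0.184).

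The pyruvate kinase loci, which make pyruvate and ATP at the end of glycolysis, split between the organs. Os11g10980 had 36.03, 40.37 and 48.75 CPM as the lowest, median and highest root value and 13.04, 16.53 and 21.70 CPM in shoot, a log2 difference of 1.27 (adjusted p = 1.93e-11). Os01g16960 differed by 1.08 and Os12g05110 by 0.66 in the same direction. Os07g08340 went the other way, with 31.1, 36.8 and 54.5 CPM in root and 74.5, 80.0 and 91.1 CPM in shoot (log2 difference -1.10, adjusted p = 5.06e-10). All 4 loci were without overlap between organs. Pyruvate phosphate dikinase, which runs the reverse step and regenerates phosphoenolpyruvate, was lower in root at Os05g33570, with 78.4, 267 and 451 CPM, against 329, 791 and 943 CPM in shoot (log2 difference -1.64, adjusted p = 3.93e-11).

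Of the 3 loci annotated to the steps of the pyruvate dehydrogenase complex, E1 and E2 were lower in root and the other was not called. The pyruvate dehydrogenase E1 locus Os12g42230 had 27.1, 33.2 and 49.7 CPM as the lowest, median and highest root value and 50.5, 68.8 and 81.8 CPM in shoot (log2 difference -0.94, adjusted p = 5.20e-09), and the E2 locus Os12g08170 differed by -0.61. The dihydrolipoyl dehydrogenase locus Os05g06460, annotated to the E3 step, was not called (0.10, adjusted p = 0.323). Citrate synthase, which joins acetyl-CoA to oxaloacetate, was higher in root at Os02g10070, with 121, 141 and 177 CPM, against 53.8, 69.3 and 82.5 CPM in shoot (log2 difference 1.12, adjusted p = 2.02e-11). The decarboxylase locus Os01g06660, annotated to a 2-oxo acid reaction, had 16.51, 19.11 and 28.40 CPM in root and 8.62, 10.4 and 11.8 CPM in shoot (log2 difference 0.95, adjusted p = 2.39e-08). Both malate dehydrogenase loci were close to even, Os01g46070 at 0.05 and Os10g33800 at 0.02, with medians of 255 CPM in root and 244 CPM in shoot for Os01g46070 and of 814 CPM in root and 856 CPM in shoot for Os10g33800.

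The largest differences of the sugar list, in both directions, were at loci annotated to other reactions or to none. Os07g46920, annotated to the oxidation of secoisolariciresinol, an intermediate of lignans, had 0.519, 1.21 and 4.46 CPM as the lowest, median and highest root value and 4.94, 21.0 and 26.9 CPM in shoot (log2 difference -3.18, adjusted p = 5.11e-08). Os04g10000, annotated to reactions of the diterpenoid phytoalexins momilactone A and oryzalexin, had 0.535, 1.14 and 3.56 CPM in root and 0.132, 0.245 and 1.02 CPM in shoot (log2 difference 1.99, adjusted p = 0.000147). Os03g44420, listed without a reaction, had 7.63, 9.29 and 9.90 CPM in root and 52.1, 66.1 and 75.2 CPM in shoot (log2 difference -2.82, adjusted p = 1.18e-17). At the glyceraldehyde 3-phosphate dehydrogenase step, Os02g07490 was higher in root without overlap (log2 difference 0.97, adjusted p = 1.47e-08). Os04g40950, of the same step, differed by -0.16 (adjusted p = 0.0441), and this call did not hold. Its value was 0.17 with library totals, and 12 of the 18 leave-one-out fits, the fits without a filter, with upper-quartile scaling, without the time term and with the replicate block ended the call.

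**Figure D2:**
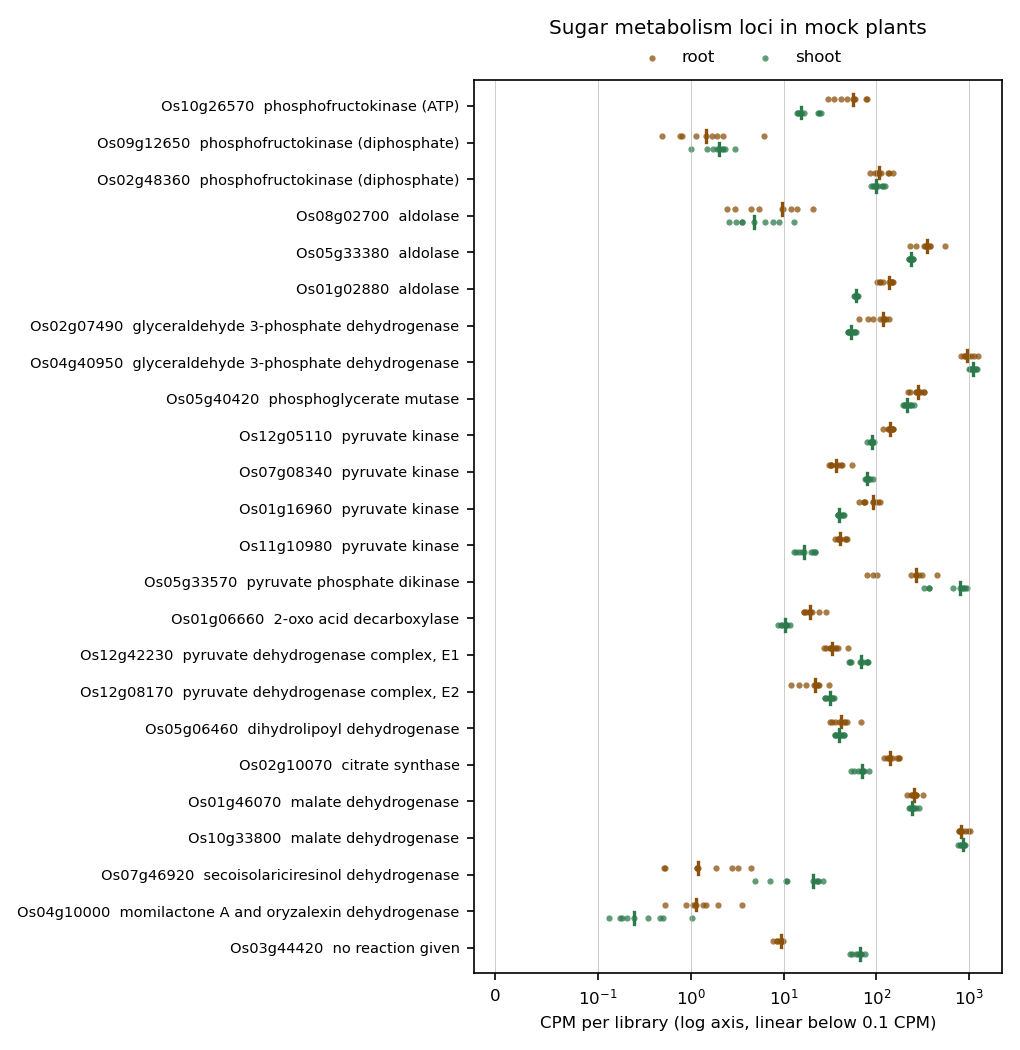
CPM of the 24 sugar metabolism loci in each mock library, on a log axis that is linear below 0.1 CPM, with the 9 root libraries (brown) above the 9 shoot libraries (green) of each locus and medians as short bars. The root points of the phosphofructokinase locus Os10g26570, between 30.5 and 79.3 CPM, sit to the right of all its shoot points, and those of the pyruvate kinase locus Os07g08340, between 31.1 and 54.5 CPM, to the left of theirs.

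Of the 13 glucosyltransferase loci, 11 passed the filter on low counts. Of these, 7 were lower in root, 1 was higher and 3 were not called, with a median difference of -2.17, and 8 of the 11 did not overlap, beside 37.6% lower and 44.8% without overlap among all transcripts tested. These loci were annotated to the transfer of glucose to small molecules, and the acceptors named below are those of the annotation. The study lists the set as related to cytokinin glucosyltransferase. Among the acceptors given here, a cytokinin is named at Os02g42280 only. The lowest relative to shoot was Os01g08440 (crocetin), with 0.34, 0.586 and 1.49 CPM as the lowest, median and highest root value and 30.6, 98.0 and 127 CPM in shoot (log2 difference -6.79, adjusted p = 3.60e-14). Os02g11640 (dinitrotoluene derivatives) had 0.552, 1.10 and 2.34 CPM in root and 7.97, 46.1 and 69.6 CPM in shoot (log2 difference -4.62, adjusted p = 2.06e-08). Os07g13770 (the benzoxazinoids DIBOA and DIMBOA) had 1.02, 1.45 and 2.06 CPM in root and 18.1, 20.4 and 22 CPM in shoot (log2 difference -3.75, adjusted p = 3.92e-15).

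Only Os04g44250 (flavonols and hydroxyflavones) was called higher in root among the glucosyltransferase loci tested. It had 2.56, 3.53 and 14.02 CPM in root and 0.262, 0.46 and 1.11 CPM in shoot (log2 difference 3.19, adjusted p = 9.29e-09). Os03g24430, annotated to the brassinosteroids castasterone and brassinolide, fell under the filter, with 49 reads over the 9 root libraries and 0 over the 9 shoot libraries. Os02g42280, annotated to zeatins, which are cytokinins, also fell under it, with 52 reads in root and 33 in shoot. Its levels of at most 0.749 CPM in root and 0.414 CPM in shoot overlapped, and a difference was not tested. Its means at 2 and 24 h were 0 and 0.55 CPM in root and 0.18 and 0.155 CPM in shoot. The 5 loci of the list annotated to luteolinidin and apigeninidin or to cyanidin-3-O-rutinoside, all of them flavonoids, included 3 that were lower in root, Os11g04860 at -2.45, Os07g31960 at -2.17 and Os05g45100 at -2.70, and 2 that were not called.

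Primers against some of these loci show which stretches the study could amplify, and they are given for 3 loci that differ between organs in opposite ways, in lower case, forward (F) and reverse (R), as the study's primer list writes them.
Os10g26570 F: gctgttcatggtgcatttg
Os10g26570 R: cttgtggacttgatgacttct
Os07g46920 F: tcatcgaggaggacatgaa
Os07g46920 R: ttatgcccagtgatgtacttg
Os02g11640 F: tgtcaaagctcatggacag
Os02g11640 R: aggctttcgtacgaggat

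The cytokinin loci were mostly lower in root. Of 7 members, 5 were lower, 2 higher, and 6 did not overlap between organs, with a median difference of -2.11. Among all transcripts tested, 37.6% were lower and 44.8% did not overlap. The study names OsRR6, OsRR10 and OsCKX4 for a response to zaxinone in these data, so they are not an independent choice. The type-A response regulators OsRR6 and OsRR10 are induced by cytokinin and dampen its signal. OsRR10 (Os02g35180) had 17.3, 20.6 and 35.5 CPM as the lowest, median and highest root value and 71.2, 78.3 and 111 CPM in shoot (log2 difference -1.84, adjusted p = 7.80e-11). OsRR6 (Os04g57720) had 1.55, 3.48 and 4.56 CPM in root and 8.93, 16.7 and 22.4 CPM in shoot (log2 difference -2.35, adjusted p = 4.91e-10). OsCKX4 (Os01g71310), a cytokinin oxidase/dehydrogenase that degrades the hormone, had 3.97, 7.77 and 12.0 CPM in root and 20.9, 31.8 and 50.6 CPM in shoot (log2 difference -2.11, adjusted p = 8.00e-11). All 3 were thus without overlap.

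The 3 cytokinin biosynthesis loci did not share a direction. Os10g33900 had 0.84, 1.25 and 2.79 CPM in root and 12.4, 14.1 and 17.2 CPM in shoot (log2 difference -3.30, adjusted p = 1.52e-12). Os03g49050 had 0.453, 0.764 and 1.18 CPM in root and 2.77, 4.19 and 5.71 CPM in shoot (log2 difference -2.45). Os05g51390 was higher in root, with 0.68, 1.06 and 1.95 CPM, against 0.0436, 0.128 and 0.368 CPM in shoot, which rest on 309 reads in root and 29 in shoot (log2 difference 2.97, adjusted p = 7.02e-08). The regulatory locus Os06g08440 was called by a small margin, with medians of 23.5 CPM in root and 19.1 CPM in shoot and overlap between organs (log2 difference 0.29, adjusted p = 0.00243). Under every scaling tried, the counts of both lists stayed at 1 higher and 7 lower for the glucosyltransferases and 2 higher and 5 lower for the cytokinin loci.

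**Figure D3:**
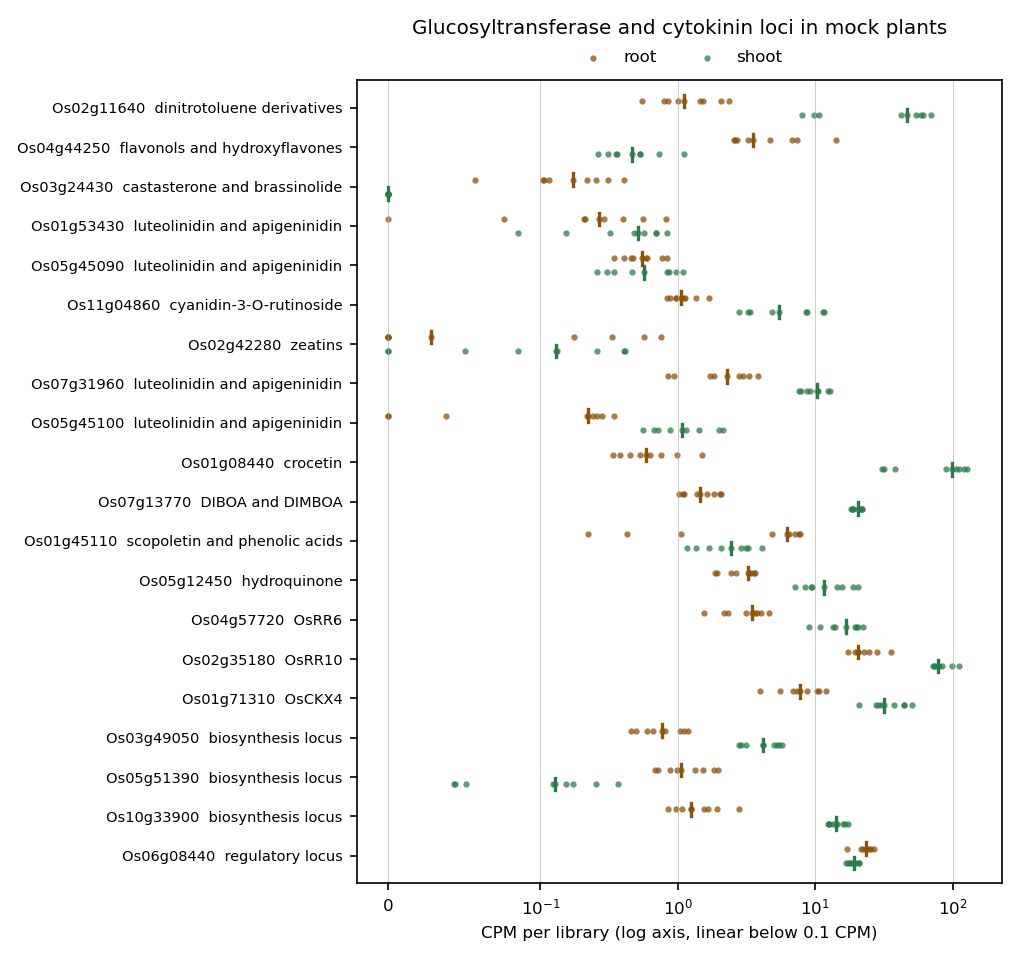
CPM of the 13 glucosyltransferase loci, labelled with the acceptors of their annotation, and the 7 cytokinin loci in each mock library, on a log axis that is linear below 0.1 CPM, with root (brown) above shoot (green) and medians as short bars. At Os01g08440 the highest root library, at 1.49 CPM, lies far left of the lowest shoot library, at 30.6 CPM, and Os04g44250 shows the opposite order.

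Primers for qRT-PCR were also listed for some sugar and glucosyltransferase loci. The 14 loci of the qRT-PCR set, which are those without a given function, held some of the most root-restricted levels among the annotated loci. Of these, 10 were higher in root, 1 was lower and 3 were not called, beside 40.1% higher and 37.6% lower among all transcripts. Their median difference was 5.20. The study picked these loci for a response to zaxinone in root libraries, so their lean to root is not independent of that choice. At a log2 difference of at least 3, 8 were higher and 0 lower, beside 8.63% and 9.72% of all transcripts. Primers of the 3 loci with the largest differences are printed because each pair targets a transcript with at most 28 reads over the 9 shoot libraries together.
Os07g28250 F: tatacgagcacgaaacgcca
Os07g28250 R: tgcagggtgttgaagaggac
Os06g05990 F: atggagatggagagggaggg
Os06g05990 R: ccttccttccacgacaacga
Os07g44110 F: aagcgcggagattgaactga
Os07g44110 R: gaagacctgcttcccctcac

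Os07g28250 had 3.29, 6.70 and 10.2 CPM as the lowest, median and highest root value, 1798 reads in all, and 0 reads in shoot, a log2 difference of at least 8.83 from a floor of 3 reads. Os06g05990 had 29.5, 72.0 and 110 CPM in root and 0, 0.046 and 0.172 CPM in shoot, where it rests on 13 reads (log2 difference 9.91, adjusted p = 1.83e-17). Os07g44110 had 44.0, 66.3 and 121 CPM in root and 0, 0.128 and 0.262 CPM in shoot (log2 difference 9.01, adjusted p = 1.11e-19). These 3 were present in every root library and at or near 0 in every shoot library. The others past 3 were Os10g10540 (7.69), Os01g33869 (7.29), Os02g35490 (7.27), Os07g14470 (5.63) and Os10g07556 (4.76). Os02g35490 had the highest root level of these, 127 CPM in the median library, against 0.859 CPM in shoot. Os01g16170 was the only one lower in root, with medians of 24.5 CPM in root and 69.3 CPM in shoot and overlap between the organs (log2 difference -1.31, adjusted p = 0.000464).

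The difference between organs was then followed over time. Under the 12 h photoperiod, the 3 times also differ in time of day, which cannot be told apart from time since treatment. At 2 h, 9707 transcripts were higher and 9092 lower in root, 72.1% of the 26079 tested. At 6 h, 8904 were higher and 8865 lower (68.1%), and at 24 h, 9452 were higher and 8726 lower (69.7%). A total of 6713 transcripts were called higher in root at all 3 times and 6657 called lower at all 3 times. The test of the interaction of organ and time called 7014 transcripts (26.9%). Of all transcripts tested, 731 were called higher in root at 1 time and lower at another, and 119 of these by a log2 difference of at least 1 each way.

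Among the annotated loci the interaction was called for 22, beside 26.9% of all transcripts tested. These were 8 of the 24 sugar loci tested, 7 of 11 glucosyltransferase loci, 3 of 7 cytokinin loci and 4 of 14 qRT-PCR loci. Of the 22, 14 kept the call in every alternative fit that tested them. The phosphofructokinase locus Os10g26570 had means of 71.8 ± 11.7, 53.7 ± 4.31 and 35.8 ± 5.60 CPM in root at 2, 6 and 24 h and of 15.4 ± 0.999, 14.6 ± 0.615 and 24.4 ± 0.948 CPM in shoot (SD, n = 3 each). The difference was largest at 2 h and smallest at 24 h, with log2 values of 2.22, 1.88 and 0.55 (edgeR adjusted p of the interaction 5.97e-06). The aldolase locus Os08g02700 changed direction, with 13.1 ± 8.33, 10.5 ± 1.34 and 3.62 ± 1.57 CPM in root and 4.90 ± 1.32, 3.06 ± 0.483 and 9.82 ± 2.76 CPM in shoot (SD, n = 3 each, log2 1.42, 1.77 and -1.45, edgeR adjusted p = 0.000812), where the 3 root libraries at 2 h ranged between 4.41 and 21.0 CPM. The glucosyltransferase locus Os01g45110 (scopoletin and phenolic acids) likewise had 6.31 ± 1.48, 6.99 ± 0.716 and 0.568 ± 0.436 CPM in root and 2.11 ± 0.992, 1.83 ± 0.546 and 3.39 ± 0.614 CPM in shoot (SD, n = 3 each, log2 1.58, 1.93 and -2.63, edgeR adjusted p = 1.55e-05). With time as a block, neither of these loci had been called.

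Other loci kept their direction while its size changed with time. Os02g11640 had 0.971 ± 0.497, 1.94 ± 0.455 and 0.965 ± 0.157 CPM in root and 49.4 ± 9.68, 9.41 ± 1.31 and 60.8 ± 8.07 CPM in shoot at 2, 6 and 24 h (SD, n = 3 each, edgeR adjusted p = 1.08e-06). Os01g08440 showed the same shape in shoot, with 112 ± 20.3, 33.3 ± 3.89 and 105 ± 6.42 CPM, while root stayed at or under 0.818 CPM on average (edgeR adjusted p = 0.00735). Os07g46920 had medians of 3.25, 1.20 and 0.529 CPM in root and 22.1, 7.16 and 23.4 CPM in shoot over the 3 libraries of each time (edgeR adjusted p = 0.00252). Os01g16170 was at 35.7, 27.5 and 20.6 CPM in root and at 70.1, 30.7 and 150 CPM in shoot on average, so that the organs were closest at 6 h (log2 -0.98, -0.16 and -2.87). Among these 4 loci the shoot level was lowest at 6 h. Os10g10540 had 44.9 ± 3.13, 34.9 ± 5.54 and 10.5 ± 2.22 CPM in root, against means of 0.0984, 0.0313 and 0.281 CPM in shoot, which rest on 26 reads over the 9 shoot libraries.

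For OsRR6 the interaction with time was called in every alternative, with means of 2.02 ± 0.412, 4.12 ± 0.403 and 3.42 ± 0.249 CPM in root and 18.1 ± 3.66, 19.5 ± 2.82 and 11.1 ± 2.26 CPM in shoot at 2, 6 and 24 h (SD, n = 3 each, edgeR adjusted p = 0.00264). The log2 difference was -3.16, -2.25 and -1.70. The biosynthesis locus Os10g33900 had log2 differences of -3.48, -2.60 and -3.90 (edgeR adjusted p = 0.00495). For OsRR10 the interaction was called (adjusted p = 0.0212) and lost in 4 of 22 alternatives, with p of up to 0.055 without shoot mock 2 h replicate 3.

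**Figure D4:**
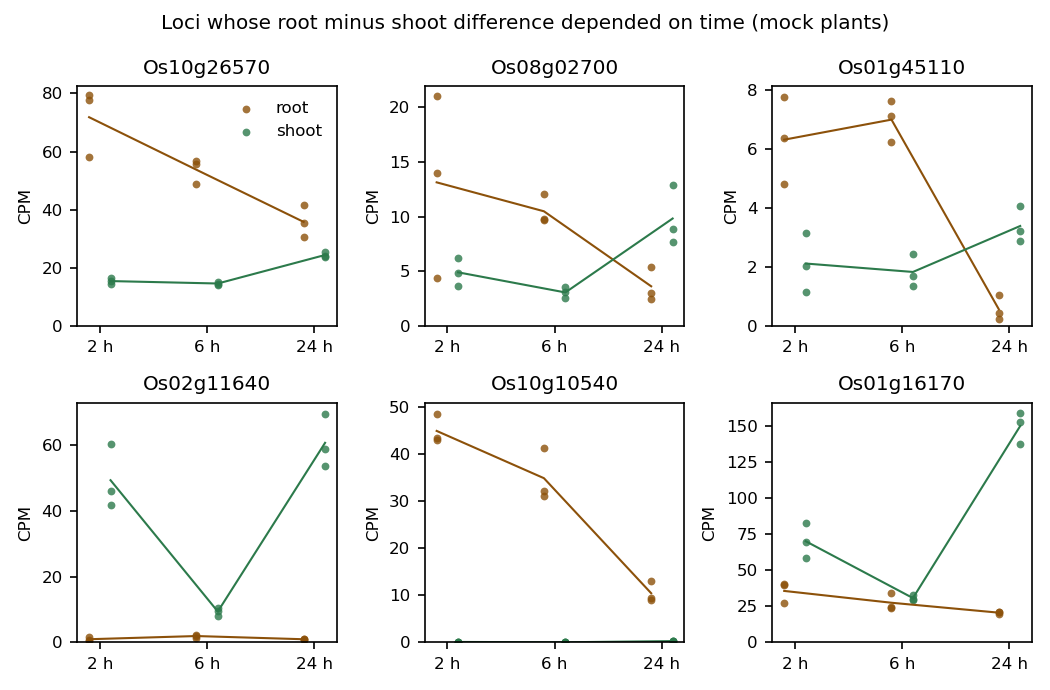
CPM of 6 loci in each mock library at 2, 6 and 24 h, root (brown) left of shoot (green), with lines through the means of 3 libraries. The organs change order between 6 and 24 h at Os08g02700 and Os01g45110, and the shoot values of Os02g11640 and Os01g16170 are lowest at 6 h.

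The same contrast in zaxinone plants, in 18 libraries that the mock comparison does not use, gave 9545 transcripts higher and 8451 lower in root, 70.6% of the 25508 tested. Of these libraries, root zaxinone 24 h replicate 2 held 11261992 counted reads and shoot zaxinone 6 h replicate 2 held 13229890, while mock libraries held 20501465 or more. Without root zaxinone 24 h replicate 2, 10332 transcripts were higher and 9303 lower in root. Across the 25201 transcripts tested in both mock and zaxinone plants, the 2 sets of differences correlated at r = 0.986, a description across transcripts, which are not independent replicates. Of the 11127 mock calls with a log2 difference of at least 1 that were tested in zaxinone plants, 96.8% were called the same way there. The fit for the interaction of organ and treatment had no organ by time term, although that interaction was called for 26.9% of transcripts in mock plants. Changes of the organ difference with time thus counted as spread, and treatment effects limited to 1 time could be missed. The interaction of organ and treatment was called for 57 transcripts (0.217%), 48 with a higher root minus shoot difference in zaxinone plants and 9 with a lower one. This count was 88 without root zaxinone 24 h replicate 1, 171 in DESeq2 and 7 with same-numbered libraries as pairs.

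Of the annotated loci, 7 were among the 57 and 3 of these kept the call in every alternative that tested them. Os07g23570 had 4.69, 11.4 and 30.4 CPM as the lowest, median and highest value of zaxinone roots and 0, 0.486 and 1.04 CPM in mock roots, against 0.205, 0.434 and 0.88 CPM in zaxinone shoots and 0.259, 0.598 and 1.17 CPM in mock shoots. Its root minus shoot difference was 4.83 in zaxinone plants and -0.72 in mock plants, where it was not called (interaction 5.52, edgeR adjusted p = 3.90e-07). Os01g42370 had 23.3, 81.7 and 1090 CPM in zaxinone roots and 0.37, 1.15 and 7.20 CPM in mock roots, with at most 2.06 CPM in any shoot library of either treatment (interaction 6.70, edgeR adjusted p = 1.76e-05). With time as a block, its difference in mock plants was not called (0.42, edgeR adjusted p = 0.452), while single times were called in opposite directions, at 2.41 at 2 h and -2.02 at 24 h. The decarboxylase locus Os01g06660 had 25.6, 32.1 and 41.1 CPM in zaxinone roots and 16.5, 19.2 and 28.5 CPM in mock roots, against 6.54, 9.60 and 10.1 CPM in zaxinone shoots and 8.45, 10.4 and 11.6 CPM in mock shoots (interaction 0.90, edgeR adjusted p = 0.00391). Since the study picked all 3 loci for a response to zaxinone in these root libraries, their interactions are not independent of that choice.

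**Figure D5:**
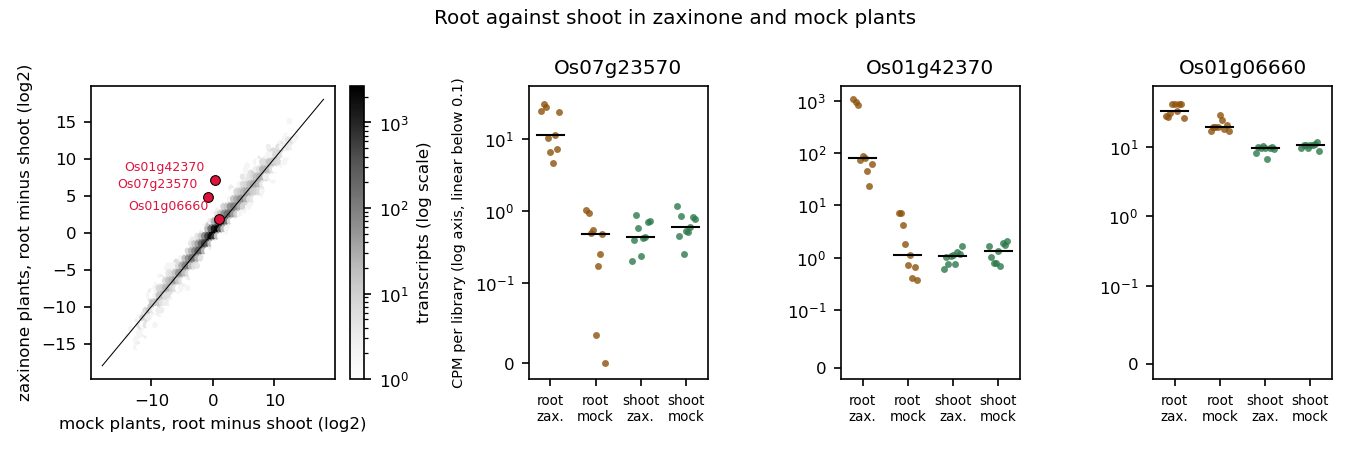
The left panel sets the root minus shoot difference (log2) in zaxinone plants against that in mock plants for 25201 transcripts, shaded by their number, with the line of equal values and 3 loci in red. The other panels show CPM per library of these loci on a log axis that is linear below 0.1, with zaxinone left of mock and root left of shoot, and bars at the medians: zaxinone roots of Os07g23570 have 4.69 CPM or more and its other groups at most 1.17 CPM.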

How the data were processed

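RNA-Seq of rice roots and shoots gave 36 libraries, of which the 18 mock libraries were compared here and the 18 zaxinone libraries served as a second set. For each library the authors used Trimmomatic to trim paired-end reads, HISAT2 to align them to the O. sativa genome v7.0 and HTSeq to count them per annotated gene, listed in the tables under transcript identifiers, and versions of these tools are not given in the sources used here. The deposited counts are raw, whole-number read counts, without normalization, and rows for transcripts with fewer than 2 counts are not listed. The deposited tables also hold the authors' DESeq2 log2 fold changes and p-values of zaxinone over mock, which were not used. Whether HTSeq used strand, and how reads of near-identical copies were assigned, is not stated, so values of overlapping or duplicated genes are uncertain.

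The 6 tables were joined by transcript identifier, with a missing row taken as 0, which gave 33024 transcripts. Counts were filtered with filterByExpr, scaled by TMM and tested in R 4.3.3 with edgeR 4.0.16 and limma 3.58.1 (glmQLFit and glmQLFTest), with time as a block and an adjusted p under 0.05 as the threshold. Differences are root minus shoot on the log2 scale. A fit with 6 groups gave each time and the interaction of organ and time. A fit of all 36 libraries, with time by treatment as a block and no organ by time term, gave the interaction of organ and treatment. Library summaries were compared by exact two-sided permutation tests. A floor of 3 counts set lower bounds where all libraries of an organ were at 0, and it covers counting error only. The pipeline was tested on simulated data with known changes.

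The rule for named loci took every locus that the study annotates for these data, some of which are given only in counts and figures, and at most 4 others by the size or level of their difference, by a rule written in the design. The members and lists were chosen with earlier results of these data known. The identifiers matched no entry of the RefSeq gene table given, so lists by product words were not analysed here. Alternatives were DESeq2 1.42.0 and its size factors, upper-quartile and total scaling, other filters, glmTreat, counts summed by locus, only transcripts in all 6 tables, no time term, a replicate block, other detection limits and leaving out each library. The counts at a log2 difference of 3 under each alternative were added after seeing the data.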

Additional observations from a re-analysis of the deposited data

Results flagged for a closer look

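Dixon's critical value flags about 1 in 20 groups by chance, here 6.2, if the values of a group come from 1 normal distribution. The groups here pool 3 times on an untransformed scale, so this rate may not hold. Within 124 groups of 9 libraries, each a summary or the CPM of an annotated locus in 1 organ, 7 held a library set apart from the others by more than that value. These were root mock 2 h replicate 3 at Os09g12650 (6.188 CPM, next 2.223) and Os04g44250 (14.02, next 7.309), root mock 24 h replicate 1 at Os05g33380 (542.2, next 382.1), Os07g08340 (54.53, next 42.89) and Os05g06460 (68.53, next 48.72), root mock 2 h replicate 2 at Os04g10000 (3.558, next 1.971) and shoot mock 6 h replicate 3 at Os04g10000 (1.022, next 0.5084).

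The root minus shoot difference depended on time, by the interaction test, for 7014 transcripts. For the annotated loci, the log2 difference at the 3 times spanned 1.67 at Os10g26570, 3.22 at Os08g02700, 0.676 at Os02g07490, 0.774 at Os12g08170 and 2.44 at Os07g46920 in the sugar list. It spanned 3.73 at Os02g11640, 2.18 at Os01g08440, 4.56 at Os01g45110 and 1.66 at Os05g12450 among the glucosyltransferases, 1.46 at OsRR6 and 1.3 at Os10g33900 among the cytokinin loci, and 2.7 at Os01g16170, 4.75 at Os10g10540 and 4.42 at Os01g42370 in the qRT-PCR set. The call was lost in at least 1 alternative for Os01g16960 (0.452), Os11g10980 (0.484), Os02g10070 (0.463), Os01g53430 (3.21), Os11g04860 (1.4), Os07g31960 (1.58), OsRR10 (0.869) and Os10g07556 (1.51).

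The difference depended on treatment for 57 transcripts. The change in zaxinone plants relative to mock plants was 6.7 at Os01g42370, 5.52 at Os07g23570 and 0.901 at Os01g06660 (log2), each called in every alternative that tested it. It was 1.41 at Os06g11130, 1.73 at Os05g45230, -2.13 at Os07g14470 and 0.852 at OsRR10, and these 4 calls were lost with the replicate block (adjusted p of 0.0592, 0.152, 0.104 and 0.257).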

How the results depend on the processing

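The values of the named loci were followed over the alternatives, with their interactions and the loci picked by size or level included. Under alternatives that leave out no library, 1110 of 1149 kept their side of the threshold, and 4268 of 4392 did when 1 library was left out. A change of sign between fits that did not call the locus was counted as no change. The one call that changed direction was Os04g40950, at 0.17 (adjusted p = 0.0502) with library totals. Requiring at least 10 counts in every library lowered the numbers of mock transcripts to 2735 higher and 3508 lower in root at a log2 difference of at least 1 and to 424 and 903 at least 3, since a transcript near 0 in 1 organ then fails the filter. The same filter gave 2989 and 3837 at 2 h, 2811 and 3479 at 6 h and 2851 and 3574 at 24 h. In zaxinone plants it gave 5495 transcripts lower at any size, 2882 higher and 3073 lower at 1, and 463 and 808 at 3. The interaction of organ and treatment was called for 171 transcripts in DESeq2 and for 7 with the replicate block. At a detection limit of 5 CPM in place of 1 CPM, the root minus shoot number of transcripts was -241.1 (exact permutation p adjusted 0.0364). The cause of these last changes was not tested.

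Leaving out each library in turn gave 10123 to 10426 mock transcripts higher and 9305 to 9710 lower in root, and 5558 to 9882 interactions with time. It gave 39 to 88 interactions with treatment, with 88 without root zaxinone 24 h replicate 1. Same-numbered root and shoot libraries of a time did not deviate together, with r between -0.0586 and 0.128 over 9 pairs (median 0.00317), of which 1 was over 0.1, and 3 of 9 root libraries correlated best with their own number. The numbers were not taken to pair the libraries. With the replicate block, 10102 transcripts were higher and 9589 lower in root. Counts summed by locus changed nothing, since each LOC_Os locus is listed with 1 transcript. For low loci, such as those under 1 CPM in both organs, the depth limits what could be called.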

Other observations

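Transcripts with a log2 difference of at least 3 often lay beside others of the same direction. Among loci in the order of their identifiers, the next tested locus was in the same class for 25.9% of those higher in root, where 8.63% of all tested loci are in the class, and for 20.1% of those lower in root, where 9.72% are. Runs of 3 or more such neighbours numbered 113 for root, with 427 loci, and 104 for shoot, with 373 loci. The longest run higher in root held 13 loci on chromosome 10, and the longest lower in root held 12 on chromosome 6. Reads of near-identical neighbouring copies may have been shared or dropped in counting, and their part in the runs was not tested.

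By chromosome, the share of tested loci higher in root by at least 3 ranged between 6.47% on chromosome 3 and 12.9% on chromosome 11. The share lower in root by at least 3 ranged between 8.67% on chromosome 5 and 11.1% on chromosome 11, a narrower span.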
